A study of Homo sapiens with 16 samples.

Results

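The C-type lectin genes CLEC4A, CLEC4D, CLEC4E, CLEC5A, CLEC7A, CLEC10A, CLEC11A, CLEC12A, CLEC2B and CLEC2D were followed by RNA-Seq in MUTZ-3 cells. These are 10 of the 60623 genes counted, taken by their symbols in each of the 16 libraries. MUTZ-3 is an acute myeloid leukemia (AML) line with inv(3), the rearrangement that brings EVI1, encoded by MECOM, under a GATA2 enhancer, and it was grown with GM-CSF and medium conditioned by 5637 cells. In the PARP inhibitor (PARPi) experiment, 1 library came from untreated cells at 0 h and the other 9 from cells harvested after 12, 24 and 48 h in olaparib (10 µM), in talazoparib (1 µM) or in the solvent DMSO. In the knockdown experiment, all 6 libraries came from cells that had received the pLKO.1 lentivirus and puromycin. The virus carried a non-targeting control (NTC) or one of the hairpins shEVI1-2531 and shEVI1-2532, and RNA was taken on days 3 and 6. Every condition was sequenced once, in this 1 cell line, so that none had a replicate.

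C-type lectin receptors are surface proteins with which myeloid cells bind sugars, lipids and dying cells. Activating members such as CLEC7A, or members coupled to the adaptors FCER1G and TYROBP, pass their signal through the kinase SYK to CARD9, BCL10 and MALT1 and on to NF-kB, whereas inhibitory members carry a motif that recruits the phosphatases PTPN6 and PTPN11. The label of a myeloid receptor holds for 7 of the 10 genes. CLEC11A encodes a secreted growth factor of progenitor cells, and CLEC2B and CLEC2D encode ligands of KLRF1 and KLRB1, receptors of NK cells and some T cells.

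Of the 10 genes, 7 lay within 2.01 Mb of chromosome 12 (GRCh38 positions 8123632 to 10130258, from CLEC4A to CLEC7A), an interval with 103 other genes in the files. CLEC5A lay on chromosome 7 (141927357 to 141947007, minus strand), CLEC10A on chromosome 17 (7074537 to 7080307, minus strand) and CLEC11A on chromosome 19 (50723364 to 50725718, plus strand). Exons of several members overlap those of other genes, which matters because the strand setting of the counting is not given in the sources used here. CLEC5A shared 12% of its exon bases with MGAM on the opposite strand, CLEC12A 3.29% with CLEC1B and 1.26% with CLEC12A-AS1 on the opposite strand, and CLEC4A 69.7% with AC006511.5 on its own strand (GENCODE v29).

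The promoter table from RefSeq (GRCh38.p14) held 5 of the 10 genes, and 4 promoters are shown, each as the 250 bases before the start on the gene's strand. CLEC4E, CLEC5A and CLEC12A were the receptors called in both experiments below with either shRNA, and CLEC11A was called in the knockdown but not under the inhibitors. Capitals mark matches, on either strand, to TGTGGT of RUNX1, TTGCNNAA of CEBPA and AGGAAG of PU.1. RUNX1 and CEBPA are among the factors that the study examined at the GATA2 distal enhancer, and PU.1 is a master factor of myeloid cells.
CLEC4E, chr12:8540906-8541155, minus strand: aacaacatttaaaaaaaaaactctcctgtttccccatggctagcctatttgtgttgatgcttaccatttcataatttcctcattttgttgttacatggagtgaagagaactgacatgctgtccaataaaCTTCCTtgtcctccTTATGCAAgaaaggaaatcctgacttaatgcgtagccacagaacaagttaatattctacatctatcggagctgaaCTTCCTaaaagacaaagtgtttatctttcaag
CLEC5A, chr7:141946975-141947224, minus strand: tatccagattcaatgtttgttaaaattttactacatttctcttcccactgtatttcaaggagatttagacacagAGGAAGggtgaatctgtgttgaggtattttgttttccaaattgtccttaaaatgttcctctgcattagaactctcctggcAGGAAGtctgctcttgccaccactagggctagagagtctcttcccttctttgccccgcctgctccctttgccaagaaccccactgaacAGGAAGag
CLEC12A, chr12:9971159-9971408, plus strand: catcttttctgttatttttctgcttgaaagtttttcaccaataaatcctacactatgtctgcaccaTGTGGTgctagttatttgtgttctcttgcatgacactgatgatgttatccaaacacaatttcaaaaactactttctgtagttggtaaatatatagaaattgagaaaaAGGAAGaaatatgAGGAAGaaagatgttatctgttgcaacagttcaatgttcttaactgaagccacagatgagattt
CLEC11A, chr19:50723114-50723363, plus strand: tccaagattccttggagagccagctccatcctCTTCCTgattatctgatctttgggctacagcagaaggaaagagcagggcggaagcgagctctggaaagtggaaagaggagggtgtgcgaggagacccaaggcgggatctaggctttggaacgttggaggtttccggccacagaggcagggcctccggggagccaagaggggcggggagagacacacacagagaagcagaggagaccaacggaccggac
CLEC5A held 3 matches to AGGAAG, CLEC4E and CLEC12A 2 each and CLEC11A 1. CLEC12A held 1 match to TGTGGT and CLEC4E 1 to TTGCNNAA. Among all 35116 promoters of the table, cut to the same 250 bases, AGGAAG was found in 28.7%, TGTGGT in 11% and TTGCNNAA in 9.05%. No matches overlapped. The windows of CLEC12A and CLEC2D lie inside the spans that the files give these genes, whose starts lie further upstream. The last 33 bases of the CLEC5A window, with the AGGAAG nearest the start, also lie inside the gene's span in the files. CLEC2D, the remaining gene with a promoter in the table, held 1 match to TGTGGT.

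Depth was 55999673 to 72681943 counts in the PARPi libraries and 95523038 to 120716213 in the knockdown libraries. A level of 3 counts, taken as a nominal floor, was 0.0249 to 0.0536 CPM (the count scaled to a library of 1000000 counts). Counts below it, such as 1 count of CLEC10A with DMSO at 48 h, are printed as they stand. Intervals of single-library ratios are 95% exact intervals of the counts and cover counting error only. Where groups of libraries are said below to overlap or not, this describes the values. The share of all genes whose groups did not overlap was not computed. Under the TMM scaling of edgeR, ratios to the matched control rose by 0.19 (olaparib) and 0.27 (talazoparib) at 48 h and by 0.17 to 0.35 in the knockdown on the log2 scale, and by at most 0.029 at 12 and 24 h. Of 95 member ratios, 29 lay beyond 2-fold with the library total and 36 with TMM. Of these 95, 5 changed sign between the scalings, all with values within 0.23 of 0 on the log2 scale: CLEC2B and CLEC7A with shEVI1-2531 at day 3, CLEC2D with olaparib at 48 h, and CLEC4D with talazoparib at 48 h and with shEVI1-2532 at day 3.

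Levels differed widely between the genes. Per kb of exon and over all 16 libraries, CLEC11A had a median of 153 CPM per kb (range 123 to 474), above the highest value of every other gene. CLEC2B (16.0), CLEC7A (13.5), CLEC5A (12.4) and CLEC12A (12.2 CPM per kb) followed, and the ranges of these 4 overlapped. CLEC4D (5.0) and CLEC4E (2.03 CPM per kb) came next, then CLEC4A (0.342) and CLEC2D (0.315), and within each of these pairs the ranges overlapped as well. Ranges also overlapped between these steps. CLEC4D reached 7.36 and CLEC5A fell to 4.43 CPM per kb, and CLEC4A reached 2.43 and CLEC4E fell to 0.575 CPM per kb. CLEC10A had the lowest median (0.0328 CPM per kb), with values up to 0.451, and stayed under 10 counts in 11 of the 16 libraries. No library held fewer than 10 counts of any of the other 9 genes.

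The PARPi time course asked which of these genes moved under an inhibitor of PARP1. Among the activating receptors, CLEC7A and CLEC5A parted from DMSO at 24 h and CLEC4E by 48 h, while CLEC4D stayed close to DMSO. CLEC7A, or Dectin-1, binds fungal beta-glucan. It had 44.8 CPM in untreated cells and 31.2, 33.6 and 72.5 CPM with DMSO at 12, 24 and 48 h. With olaparib it had 35.8, 72.2 and 153 CPM, and with talazoparib 34.5, 95.3 and 150.1 CPM. Each inhibitor library lay above the DMSO library of its hour, but the rise of DMSO itself at 48 h made the groups overlap. At 48 h CLEC7A was 2.12-fold (olaparib) and 2.07-fold (talazoparib) above DMSO.

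CLEC5A, or MDL-1, signals through TYROBP and HCST. It had 18.3 CPM in untreated cells and 26.2, 21.7 and 21.3 CPM with DMSO. Olaparib gave 28.8, 59.3 and 84.4 CPM, and talazoparib 26.6, 71.9 and 97.4 CPM. All 6 inhibitor libraries lay above all 3 DMSO libraries, narrowly at 12 h. At 48 h the log2 ratio was 1.98 (1.90 to 2.07) with olaparib and 2.19 (2.10 to 2.28) with talazoparib. The overlapping gene MGAM, on the other strand, had 60.4 to 62.9 CPM with DMSO and 134 and 190.2 CPM with olaparib and talazoparib at 48 h. Its part in the CLEC5A counts was not tested.

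CLEC4E, or Mincle, senses mycobacterial glycolipid through FCER1G. Its level was 3.37 CPM in untreated cells and 5.07, 5.31 and 5.81 CPM with DMSO. It read 5.14, 6.54 and 10.2 CPM with olaparib and 4.78, 8.95 and 11.4 CPM with talazoparib. The 12 h libraries were level and the gap opened with time, to 1.75-fold and 1.96-fold at 48 h. CLEC4D, the partner of CLEC4E at the cell surface, had 8.22 CPM in untreated cells, 10.8, 14.5 and 13.0 CPM with DMSO, 9.86, 13.7 and 14.8 CPM with olaparib and 8.04, 13.7 and 12.6 CPM with talazoparib. The groups overlapped throughout, and 5 of its 6 ratios were below 0.

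Both inhibitory receptors lay furthest above DMSO at 48 h. With talazoparib they were already higher at 24 h, by log2 ratios of 1.54 for CLEC4A and 0.53 for CLEC12A. CLEC4A, or DCIR, a receptor of dendritic cells and monocytes, was near the detection limit in controls. It had 10 counts (0.145 CPM) in untreated cells and 0.262, 0.303 and 0.267 CPM with DMSO, against 0.254, 0.372 and 2.11 CPM with olaparib and 0.154, 0.880 and 3.11 CPM with talazoparib. The rise at 48 h was from 17 counts with DMSO to 127 with olaparib and 174 with talazoparib, a ratio of 7.90-fold and 11.6-fold (log2 intervals 2.25 to 3.81 and 2.82 to 4.35). AC006511.5, which covers 69.7% of the CLEC4A exon bases on the same strand, never exceeded 7 counts. How reads on shared bases were counted is not given in the sources used here. They may be missing from both genes, so this low count does not settle the part of the overlap in the CLEC4A level, which was not tested. CLEC12A, or CLL-1, is a surface antigen of AML blasts. It had 22.3 CPM in untreated cells and 22.3, 37.4 and 37.4 CPM with DMSO, 21.3, 42.2 and 83.8 CPM with olaparib and 17.6, 54.0 and 92.5 CPM with talazoparib. It was below DMSO at 12 h with both inhibitors and 2.24-fold and 2.47-fold above DMSO at 48 h.

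CLEC10A, a receptor for terminal galactose and N-acetylgalactosamine on dendritic cells and macrophages, was too low for the test in the time course. Its counts with DMSO were 4, 4 and 1, with olaparib 5, 22 and 67, and with talazoparib 3, 9 and 6. The olaparib libraries of 24 and 48 h stood apart. At 48 h the log2 ratio of olaparib to DMSO was 6.15 with an interval of 3.62 to 11.47, since DMSO held 1 count, and no fold was computed for talazoparib, where both libraries were under 10 counts.

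The secreted factor CLEC11A and the ligands showed smaller differences. CLEC11A had 281 CPM in untreated cells and 185, 294 and 191 CPM with DMSO, 192, 222 and 201 CPM with olaparib and 181, 228 and 204 CPM with talazoparib. The DMSO library of 24 h was the high one, and the 24 h ratios (log2 -0.40 and -0.37) were lower than those of 12 and 48 h, which lay between -0.032 and 0.098. CLEC2B had 37.4 CPM in untreated cells and 34.1, 40.9 and 57.7 CPM with DMSO, 27.9, 39.0 and 73.0 CPM with olaparib and 24.4, 44.3 and 79.0 CPM with talazoparib. It began below DMSO and ended above it with both agents. CLEC2D stayed between 1.25 and 3.54 CPM in the 10 libraries, with DMSO at 2.11, 2.99 and 3.03 CPM, and no ratio beyond 0.54 on the log2 scale in either direction.

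**Figure D1:**
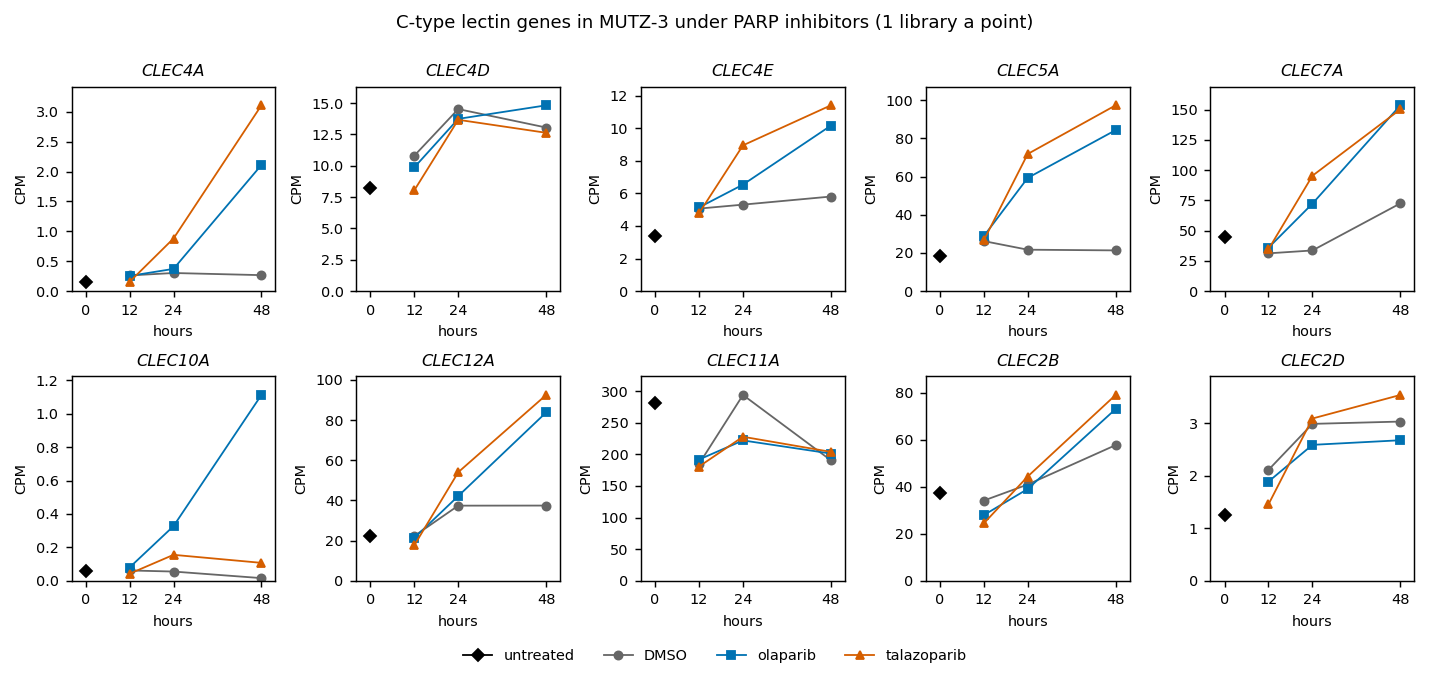
CPM of each gene (vertical axes, each from 0) against hours of treatment in the 10 libraries of the PARPi experiment, with 1 library a point and lines joining the hours of each agent. CLEC5A, CLEC7A, CLEC4E, CLEC4A and CLEC12A lie close to DMSO at 12 h and above it at 48 h with both agents, while CLEC4D and CLEC11A lie close to DMSO at 48 h.

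Averaged over the 3 hours, 0 of the 9 genes tested passed the threshold of 0.05 on the adjusted p (edgeR's quasi-likelihood F-test with the hours as a term). Over all 17218 genes tested, 4.17% were called for the mean of both inhibitors (3.16% higher and 1.01% lower), 0.639% for olaparib and 4% for talazoparib. CLEC7A came nearest (log2 0.91 ± 0.22 SE, adjusted p = 0.0531), then CLEC5A (1.25 ± 0.37 SE, adjusted p = 0.0672). At an unadjusted p under 0.05 the test gave 3 of the 9 for the mean, 2 for olaparib and 4 for talazoparib. DESeq2 called 2 for the mean, CLEC5A and CLEC7A, and edgeR without the filter on low counts called 4. Leaving out the DMSO library of 12 h gave 5 calls, and leaving out the talazoparib library of 12 h gave 3. Scaled to the library total, CLEC5A and CLEC7A were higher in all 6 pairs of inhibitor and DMSO library, as were 14.7% of the 18732 genes compared. Both were also higher in all 6 pairs with TMM, as were 17.6%.

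The test of a trend asked whether the inhibitor effect, averaged over both agents, changed with each doubling of the hours. It called 6 of the 9 genes as rising, with 10% of all genes called in that direction, 9.82% in the other and 19.8% in either. The slopes were 1.95 ± 0.35 (SE) for CLEC4A, 1.11 ± 0.13 for CLEC5A, 0.83 ± 0.14 for CLEC12A, 0.57 ± 0.16 for CLEC4E, 0.55 ± 0.13 for CLEC7A and 0.50 ± 0.13 for CLEC2B, in log2 per doubling. The edgeR adjusted p was 1.6e-14 for CLEC5A, 5.3e-08 for CLEC12A, 5.1e-07 for CLEC4A, and at most 0.0026 for the others. CLEC4D (0.28 ± 0.14), CLEC11A (0.15 ± 0.13) and CLEC2D (0.29 ± 0.19) did not pass. The median slope of the 9 genes was 0.55, against -0.011 over all genes.

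This model left 2 residual degrees of freedom, and edgeR took the spread wholly from the trend over all genes, so that a gene's own scatter between hours does not enter these p-values. Without the DMSO library of 12 h 2 calls were left, CLEC4A and CLEC12A, and the CLEC7A slope was -0.021. Without the DMSO library of 48 h CLEC5A and CLEC7A were left, and without the olaparib library of 48 h CLEC5A and CLEC12A.

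In the knockdown, MECOM served as the check of the labels. The files of both libraries labelled shEVI1-2531 carry another number in their names, so that this arm is called by its label throughout. It had 42.4 and 44.2 CPM with NTC at day 3 and day 6, 12.3 and 18.5 CPM with shEVI1-2531 and 4.51 and 4.03 CPM with shEVI1-2532. It was therefore at 28.9% and 41.8% of NTC with the former and at 10.6% and 9.10% with the latter. In the time course MECOM had 28.4 CPM in untreated cells and 51.1, 50.9 and 63.6 CPM with DMSO at 12, 24 and 48 h. It had 46.1, 40.8 and 21.0 CPM with olaparib and 46.8, 31.4 and 8.54 CPM with talazoparib. At 48 h this was 33.1% and 13.4% of DMSO, which itself lay above the untreated level. The MECOM slope over hours was called lower (-0.94 ± 0.13 SE). Its mean inhibitor effect was not called (-0.92 ± 0.33 SE, edgeR adjusted p = 0.0972). Both shRNAs lowered MECOM, the reduction being deeper with shEVI1-2532 (edgeR log2 difference -1.70 ± 0.20 SE, adjusted p = 0.000138).

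The knockdown comparison asked which genes followed the loss of EVI1 in the absence of an inhibitor. CLEC12A, CLEC5A, CLEC4E and CLEC11A were higher than NTC with both shRNAs at both days. CLEC12A had 32.4 and 17.7 CPM with NTC, 71.9 and 48.5 CPM with shEVI1-2531 and 52.5 and 50.2 CPM with shEVI1-2532. CLEC5A had 43.3 and 31.6 CPM, then 64.6 and 79.3 CPM, then 86.2 and 60.7 CPM. CLEC4E had 2.11 and 1.39 CPM, then 3.27 and 3.19 CPM, then 4.30 and 2.36 CPM. For each of these receptors all 4 shEVI1 libraries lay above both NTC libraries, a pattern whose share over all genes was not computed. The looser pattern, above the NTC library of the same day in all 4 pairs, held for 14.2% of 19882 genes. The pattern over both NTC libraries was narrowest for CLEC4E, whose lowest shEVI1 library (2.36 CPM) lay next to the highest NTC library (2.11 CPM). MGAM, on the opposite strand to CLEC5A, had 42.0 and 47.1 CPM with NTC, 50.5 and 130.1 CPM with shEVI1-2531 and 187 and 284 CPM with shEVI1-2532. CLEC12A-AS1, on the opposite strand to CLEC12A, moved the other way with shEVI1-2532, with a log2 change of -1.91 ± 0.32 (SE).

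CLEC11A, the progenitor growth factor, had 184 and 283 CPM with NTC, 373 and 444 CPM with shEVI1-2531 and 619 and 697 CPM with shEVI1-2532. The groups did not overlap, and the order of the 3 arms was the same at both days. The log2 ratio to NTC at day 3 was 1.02 (1.00 to 1.05) and 1.75 (1.73 to 1.77). Outside the shEVI1 libraries the highest CLEC11A level was 294 CPM, in the DMSO library of 24 h.

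CLEC7A had 53.0 and 36.7 CPM with NTC, 51.1 and 59.8 CPM with shEVI1-2531 and 84.9 and 64.0 CPM with shEVI1-2532. It overlapped NTC with shEVI1-2531 at day 3. CLEC4D had 8.57 and 3.63 CPM with NTC, 10.3 and 7.20 CPM with shEVI1-2531 and 7.31 and 6.08 CPM with shEVI1-2532, so that its day 6 libraries lay above the NTC library of their day and below that of day 3. CLEC4A had 0.754 and 0.504 CPM with NTC (91 and 55 counts), 0.523 and 0.263 CPM with shEVI1-2531 and 1.90 and 1.20 CPM with shEVI1-2532. Here the shRNAs parted, with shEVI1-2532 above NTC at both days and shEVI1-2531 below the NTC library of its day.

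CLEC2B had 62.1 and 35.6 CPM with NTC, 61.4 and 37.7 CPM with shEVI1-2531 and 88.6 and 43.3 CPM with shEVI1-2532. CLEC2D had 2.68 and 1.61 CPM, then 1.13 and 1.33 CPM, then 2.04 and 2.28 CPM, so that shEVI1-2531 was lowest at both days while NTC and shEVI1-2532 changed places. CLEC10A had 32 and 9 counts with NTC, 13 and 26 with shEVI1-2531 and 4 and 3 with shEVI1-2532. These CLEC10A values crossed between the days, and 3 of its 6 knockdown libraries held fewer than 10 counts.

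**Figure D2:**
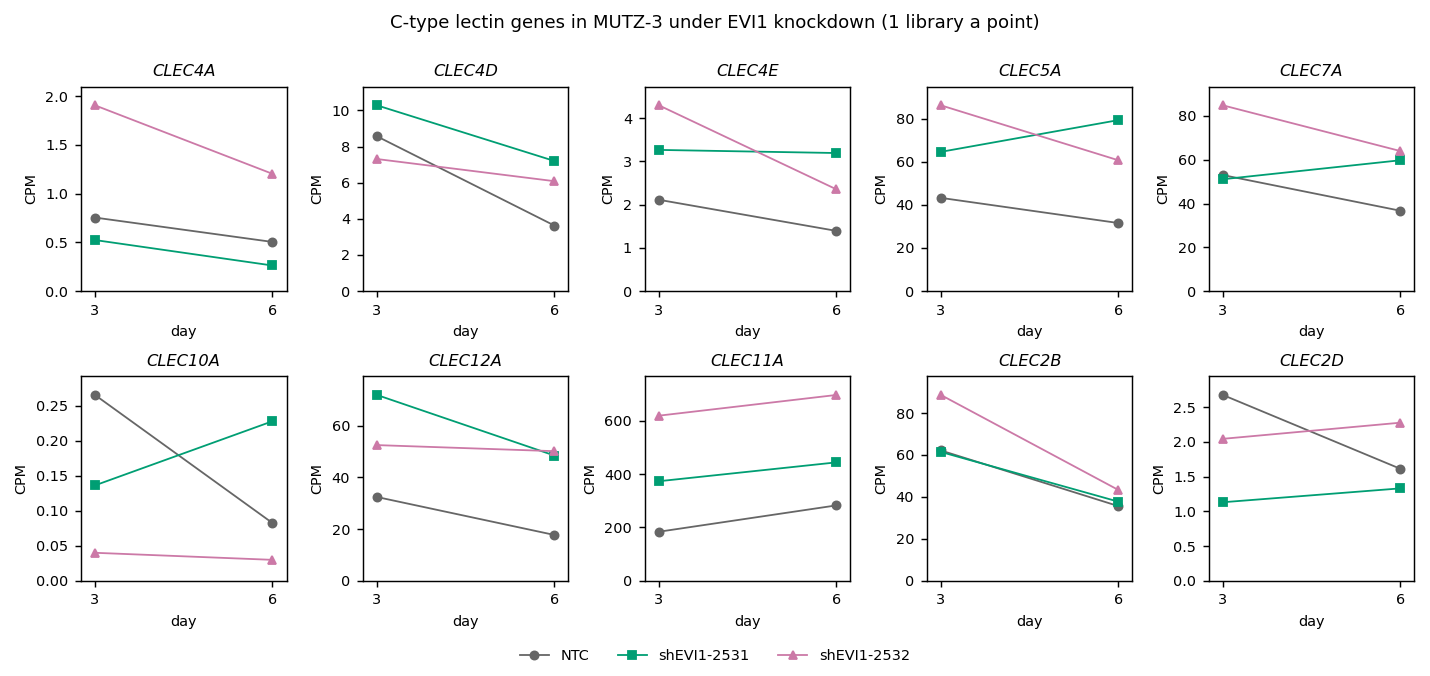
CPM of each gene (vertical axes, each from 0) at day 3 and day 6 in the 6 knockdown libraries, with 1 library a point. CLEC12A, CLEC5A, CLEC4E and CLEC11A lie above NTC at both days with both shRNAs, and CLEC4A lies above NTC with shEVI1-2532 and below it with shEVI1-2531.

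The levels in NTC cells also moved between the days. CLEC11A rose 1.54-fold from day 3 to day 6, and the other 9 genes were lower at day 6, by a log2 ratio of -0.45 for CLEC5A to -1.24 for CLEC4D and -1.68 for the low CLEC10A. Each shEVI1 ratio therefore rests on the NTC library of its own day.

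In edgeR's test over both days, shEVI1-2531 raised 4 of the 10 genes (9.49% of all 18606 genes tested were called higher and 17.4% in either direction). These were CLEC12A (log2 1.46 ± 0.20 SE), CLEC5A (1.14 ± 0.18), CLEC4E (1.09 ± 0.26) and CLEC11A (1.00 ± 0.14), with adjusted p of 0.000422, 0.00126, 0.0125 and 0.000464. CLEC4D (0.76 ± 0.24 SE, adjusted p = 0.0504) fell just short. The median over the 10 genes was 0.63, against 0.0074 over all genes. Leaving out 1 library in turn kept CLEC12A, CLEC5A and CLEC11A called each time, whereas CLEC4E was lost without either NTC library or without the shEVI1-2531 library of day 6.

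shEVI1-2532 raised 7 of the 10 genes (21.2% of all genes were called higher, 19.9% lower and 41.1% in either direction). CLEC11A changed most (1.83 ± 0.14 SE, edgeR adjusted p = 1.7e-06), followed by CLEC4A (1.60 ± 0.30, adjusted p = 0.00114), CLEC12A (1.41 ± 0.20), CLEC5A (1.27 ± 0.18), CLEC4E (1.20 ± 0.26), CLEC7A (1.03 ± 0.17) and CLEC2B (0.70 ± 0.14). All 7 were called in each of the alternatives tried. CLEC10A (-1.95 ± 0.79 SE, adjusted p = 0.0678) was not called here, and was called lower in 5 of 9 alternatives. The median was 1.12, against -0.00031 over all genes.

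For the mean of both shRNAs, 7 of the 10 genes were higher (17.3% of all genes higher, 34.3% in either direction), namely CLEC12A (1.43 ± 0.18 SE), CLEC11A (1.41 ± 0.13), CLEC5A (1.20 ± 0.16), CLEC4E (1.15 ± 0.23), CLEC7A (0.77 ± 0.16), CLEC4D (0.65 ± 0.22) and CLEC2B (0.45 ± 0.12). With both shRNAs taken as 1 group, 1 gene was called, and without the NTC library of day 6, 4 were. Scaled to the library total, CLEC4E, CLEC5A, CLEC11A and CLEC12A were higher in all 4 pairs of shEVI1 and NTC library, as were 14.2% of the 19882 genes compared, and none was lower in all 4, as were 36.9%. With TMM, CLEC4D, CLEC7A and CLEC2B joined them, as did 23.9% of all genes, and none was lower, as were 24.2%.

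The shRNAs were then set against each other, and 5 of the 10 genes were higher with shEVI1-2532 (12.2% of all genes higher, 24.2% in either direction). CLEC4A differed most (log2 difference 2.14 ± 0.31 SE, edgeR adjusted p = 0.000515), followed by CLEC2D (0.95 ± 0.30, adjusted p = 0.0375), CLEC11A (0.82 ± 0.14, adjusted p = 0.00116), CLEC7A (0.53 ± 0.17, adjusted p = 0.0423) and CLEC2B (0.50 ± 0.14, adjusted p = 0.0204). CLEC10A (-2.29 ± 0.79 SE, adjusted p = 0.0538) was not called, and was called lower with shEVI1-2532 in 4 of 8 alternatives, 1 of them leaving out the shEVI1-2531 library of day 3 and 1 the NTC library of day 6. For CLEC12A (-0.0495 ± 0.19 SE), CLEC4E (0.11 ± 0.25) and CLEC5A (0.13 ± 0.18) no difference between the shRNAs was detectable. The calls of CLEC4A and CLEC11A held in each alternative, while those of CLEC7A, CLEC2B and CLEC2D were lost with scaling to the library total. They were also lost without the shEVI1-2531 library of day 3, those of CLEC7A and CLEC2B without the shEVI1-2532 library of day 3, and that of CLEC2D without the shEVI1-2532 library of day 6.

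**Figure D3:**
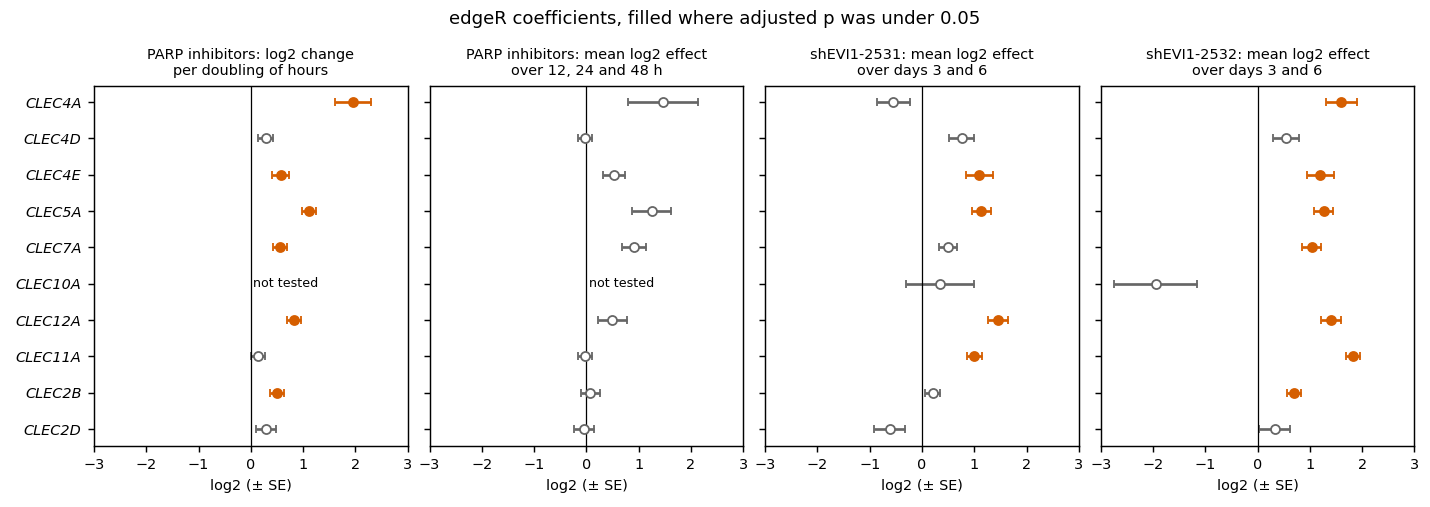
Fitted log2 effects with their SE (horizontal axes) for each gene in 4 edgeR comparisons, filled where the adjusted p was under 0.05. CLEC4E, CLEC5A and CLEC12A are filled in the trend over hours and with both shRNAs, and no gene is filled for the mean effect of the inhibitors.

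**Figure D4:**
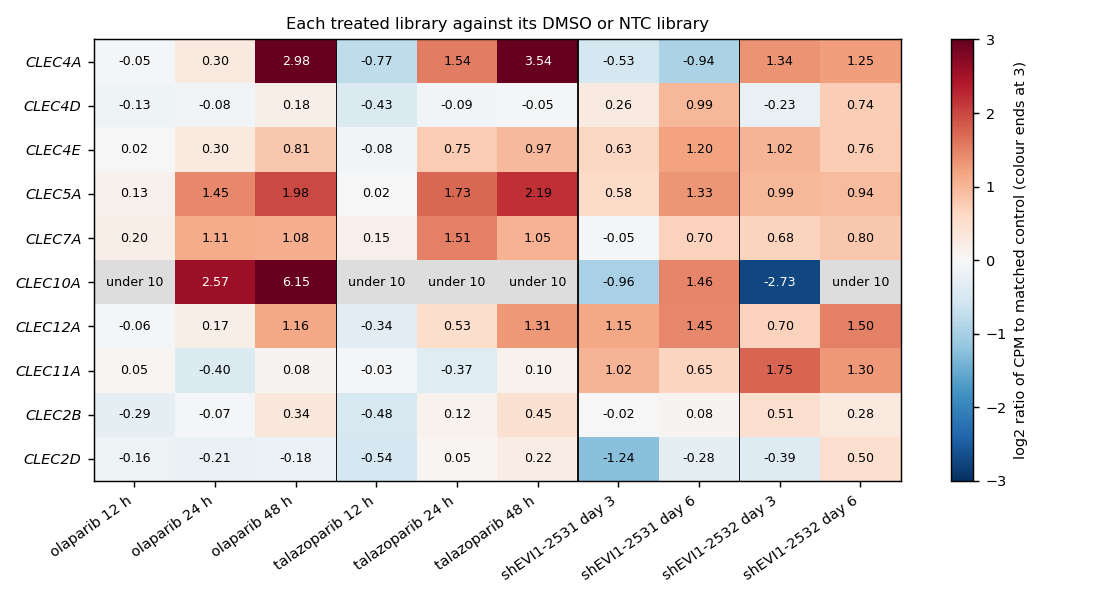
Log2 ratio of CPM for 10 genes in the 10 treated libraries against the DMSO library of the same hour or the NTC library of the same day, with grey cells where both libraries held fewer than 10 counts. Among the highest ratios are those at 48 h of CLEC4A (2.98 and 3.54) and CLEC5A (1.98 and 2.19), and those of CLEC10A with olaparib at 24 h (2.57) and 48 h (6.15), which rest on 4 counts and 1 count in the controls.

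No comparison was drawn between the inhibitors, since 10 µM olaparib and 1 µM talazoparib are not matched doses. The inhibitor and knockdown effects come from separate experiments, and the difference between them was not tested. Side by side, CLEC11A had a mean inhibitor effect of -0.024 ± 0.13 (SE) and a mean shEVI1 effect of 1.41 ± 0.13, and CLEC4D of -0.021 ± 0.13 and 0.65 ± 0.22.

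The adaptors that couple these receptors to kinases rose in the same comparisons. All 3 of TYROBP, FCER1G and HCST were called higher in the trend over hours and with each shRNA. Of all genes, 10% were called higher in the trend, 9.49% with shEVI1-2531 and 21.2% with shEVI1-2532. TYROBP had 149, 154 and 149 CPM with DMSO at 12, 24 and 48 h, 168, 226 and 578 CPM with olaparib and 186, 337 and 834 CPM with talazoparib. In the knockdown it had 169 and 177 CPM with NTC, 408 and 315 CPM with shEVI1-2531 and 881 and 710.0 CPM with shEVI1-2532. The arms did not overlap in the knockdown. FCER1G rose by 0.55 ± 0.14 (SE) with shEVI1-2531 and 1.72 ± 0.14 with shEVI1-2532, and HCST by 0.75 ± 0.17 and 1.00 ± 0.17, all in log2. Their slopes over hours were 1.10 ± 0.14 for TYROBP, 0.80 ± 0.13 for FCER1G and 0.75 ± 0.15 for HCST. For the mean inhibitor effect none of the 3 was called, the lowest edgeR adjusted p being 0.0540, of FCER1G.

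Of the kinases and phosphatases next to the receptors, 11 were tested. In the trend over hours 2 rose, among them the Src family kinase FGR (0.83 ± 0.15 SE), beside 10% of all genes. With shEVI1-2531, 1 rose, FGR (3.34 ± 0.21), beside 9.49% of all genes. With shEVI1-2532, 6 rose and 1 fell, beside 21.2% and 19.9% of all genes. The largest changes with shEVI1-2532 were FGR (3.63 ± 0.21), SYK (0.66 ± 0.14) and INPP5D (0.52 ± 0.14), while PTPN11 (-0.48 ± 0.15) was the one that fell. SYK had 208 CPM with DMSO, 199 CPM with olaparib and 228 CPM with talazoparib at 48 h. Over the 6 pairs of the time course its log2 ratio stayed between -0.062 and 0.13.

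In the CARD9 module and downstream of it, 15 genes were tested. The mean inhibitor effect was called for RELB (1.03 ± 0.20 SE), beside 3.16% of all genes called higher. In the trend over hours 2 fell, MAP3K7 (-0.75 ± 0.13) and NFATC2 (-0.41 ± 0.13), and none rose, beside 9.82% and 10% of all genes. With shEVI1-2531, 1 rose, PRKCD (0.45 ± 0.14), and 4 fell, beside 9.49% and 7.9% of all genes. The largest falls were MAP3K7 (-1.21 ± 0.13), NFKB2 (-1.13 ± 0.22) and RELB (-0.98 ± 0.24). With shEVI1-2532, 5 rose, beside 21.2% of all genes, among them PRKCD (0.86 ± 0.14) and RELA (0.71 ± 0.13). MAP3K7, the kinase TAK1, fell (-1.63 ± 0.13), beside 19.9% of all genes. CARD9 itself had a log2 effect of 0.65 ± 0.16 with shEVI1-2532, and was called. Of the receptors that the ligands engage, KLRF1 and KLRB1, neither held enough counts to be tested.

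**Figure D5:**
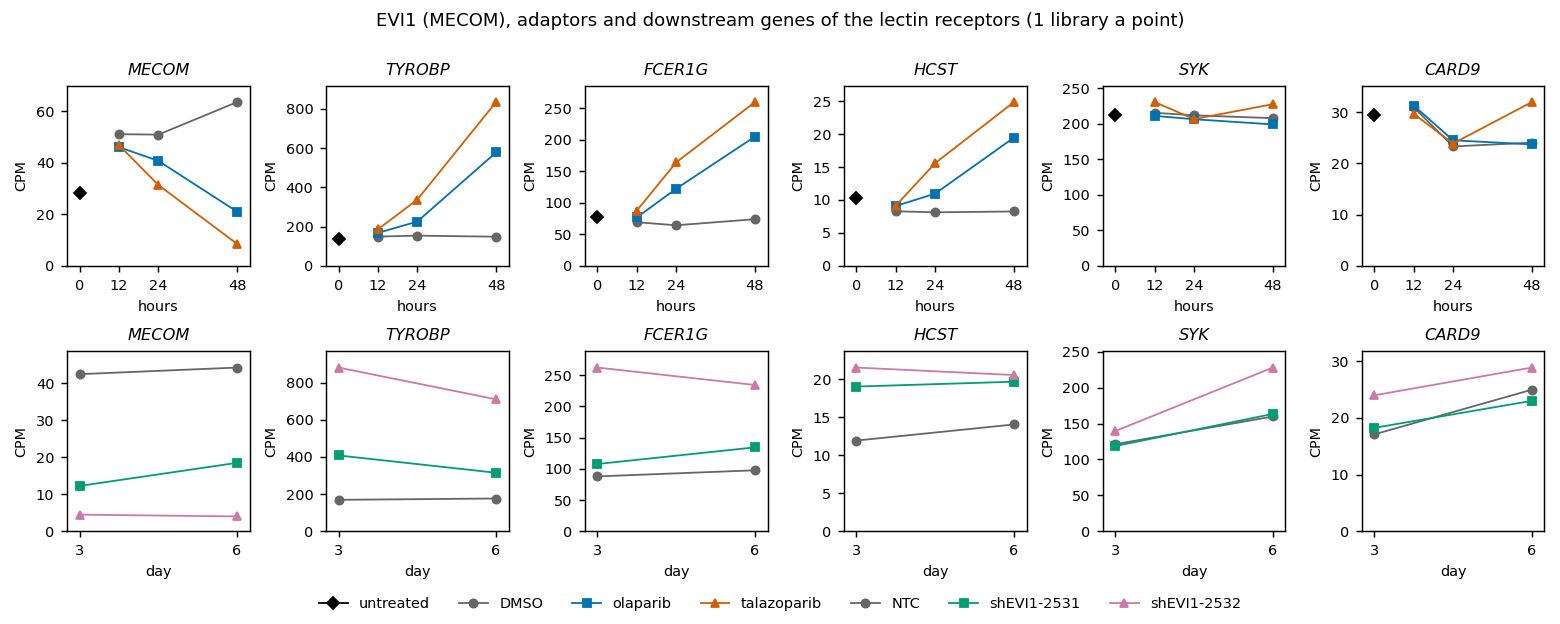
CPM of MECOM, the adaptors TYROBP, FCER1G and HCST, and SYK and CARD9 (vertical axes, each from 0) against hours in the PARPi experiment (upper row) and days in the knockdown (lower row), with 1 library a point. The adaptors lie above their controls at 48 h and with both shRNAs while MECOM lies below, and SYK stays near DMSO in the time course.

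A list of 51 other C-type lectin genes was set beside the 10, of which 25 held enough counts. For the mean inhibitor effect 4 rose, beside 3.16% of all genes, led by CLEC4F (2.36 ± 0.51 SE), CD207 (1.79 ± 0.37) and CLEC17A (1.20 ± 0.27). In the trend 11 rose and 2 fell, beside 10% and 9.82% of all genes, the largest changes being OLR1 (1.60 ± 0.29), CD209 (1.37 ± 0.44) and CLEC4C (1.25 ± 0.37). With shEVI1-2531, 8 rose and 5 fell, beside 9.49% and 7.9% of all genes, led by FCER2 (-4.37 ± 1.12), CD207 (-3.01 ± 0.55) and CLEC17A (2.82 ± 0.30). With shEVI1-2532, 10 rose and 8 fell, beside 21.2% and 19.9% of all genes, led by OLR1 (3.31 ± 0.31), SELP (-2.94 ± 0.76) and CD209 (2.76 ± 0.42). None of the 10 genes described here was called lower in any of these comparisons, and CLEC10A was not tested in the time course. Of all genes, 1.01% were called lower for the mean inhibitor effect, 9.82% in the trend, 7.9% with shEVI1-2531 and 19.9% with shEVI1-2532. With so few genes, the absence of lower calls is given as a description only.

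Of the other genes of the chromosome 12 interval, 29 were tested in the time course and 33 in the knockdown. In the trend 3 rose and 6 fell, beside 10% and 9.82% of all genes. With shEVI1-2531, 3 rose and 6 fell, beside 9.49% and 7.9%, and with shEVI1-2532, 5 rose and 12 fell, beside 21.2% and 19.9%. The largest changes in the trend were A2M (1.02 ± 0.36 SE), CLEC1A (0.97 ± 0.14) and DDX12P (-0.94 ± 0.17), and with shEVI1-2532 A2M (3.99 ± 0.995), LINC02367 (-3.20 ± 0.94) and CLEC1A (2.56 ± 0.20).

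Markers of other cell types were read in the same libraries. MUTZ-3 expressed its defining progenitor markers, with CD34, KIT and SPINK2 summing to 422 to 573 CPM with DMSO and 387 to 827 CPM with NTC. The summed level of 6 monocyte markers was 494 to 633 CPM with DMSO, 528 to 2142 CPM with olaparib and 628 to 3932 CPM with talazoparib, and 360.2 to 502 CPM with NTC, 1242 to 1360.4 CPM with shEVI1-2531 and 4317 to 5812 CPM with shEVI1-2532. Of 5 tested, 4 rose in the trend, beside 10% of all genes, among them CD14 (2.12 ± 0.15 SE) and LYZ (1.45 ± 0.14). With shEVI1-2531, 4 of 6 rose, beside 9.49% of all genes, and FCGR3A (0.70 ± 1.18) was not called. With shEVI1-2532, 5 of 6 rose, beside 21.2%, among them FCGR3A (5.92 ± 0.74) and CD14 (5.14 ± 0.25). CSF1R was called in none of these, with -0.32 ± 0.13 in the trend, -0.32 ± 0.21 with shEVI1-2531 and 0.32 ± 0.22 with shEVI1-2532. The progenitor markers summed to 248 to 476 CPM with olaparib, 140.4 to 587 CPM with talazoparib, 132 to 134 CPM with shEVI1-2531 and 15.4 to 23.4 CPM with shEVI1-2532. In the trend CD34 (-0.83 ± 0.13 SE) and KIT (-0.80 ± 0.13) were called lower and SPINK2 (-0.12 ± 0.13) was not called. With shEVI1-2531, CD34 (-2.43 ± 0.28) and SPINK2 (-2.18 ± 0.24) were lower and KIT (0.71 ± 0.20) was higher, and with shEVI1-2532 all 3 were lower. The part of these markers in the lectin levels was not tested, and in bulk RNA more cells of a type and more RNA per cell cannot be told apart.

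The 5 neutrophil markers summed to 1415 to 2594 CPM with DMSO, 1042 to 1466 CPM with olaparib and 749 to 1572 CPM with talazoparib. They summed to 3343 to 3569 CPM with NTC, 3242 to 5265 CPM with shEVI1-2531 and 1957 to 3160 CPM with shEVI1-2532. In the trend FCGR3B (2.79 ± 0.54 SE) and CSF3R (0.75 ± 0.13) were called higher, and MPO (-0.86 ± 0.13) and ELANE (-0.60 ± 0.16) lower. ELANE was lower with shEVI1-2531 (-2.81 ± 0.22) and higher with shEVI1-2532 (3.05 ± 0.21). CSF3R was higher with both (0.68 ± 0.14 and 2.01 ± 0.15), and FCGR3B was called with shEVI1-2532 (4.95 ± 0.73). The 6 dendritic cell markers, of which XCR1 stayed under 10 counts, summed to 11.1 to 67.7 CPM over the time course, highest with olaparib at 48 h, the library in which CLEC10A was highest. FCER1A (3.71 ± 0.55 SE) and CD207 (1.79 ± 0.37) were called higher for the mean inhibitor effect, and CD1C (1.44 ± 0.16), CD1A (1.18 ± 0.23) and CD207 (0.82 ± 0.19) in the trend. In the knockdown their sum was 17.9 to 26.5 CPM with NTC, 22.8 to 30.8 CPM with shEVI1-2531 and 19.1 to 56.1 CPM with shEVI1-2532. With shEVI1-2531, CD1C (1.99 ± 0.24) and CD1A (1.31 ± 0.24) were called higher, and CD207 (-3.01 ± 0.55) and CLEC9A (-1.62 ± 0.26) lower. With shEVI1-2532, 3 were higher, led by CD1C (2.64 ± 0.25) and FCER1A (1.55 ± 0.56), and CLEC9A (-1.82 ± 0.27) was lower. Of the marker lists of cells that the culture should lack, the NK cell marker KLRD1 and the B cell marker MS4A1 were at 0 counts in all 16 libraries, and NCAM1, KLRF1, the B cell marker PAX5 and the megakaryocyte marker PF4 were under 10 counts in each. Over the treated and control arms the summed levels were 5.83 to 21.0 CPM for the 5 NK cell markers, 1.65 to 10.7 CPM for the 4 T cell markers, 8.38 to 20.5 CPM for the 4 B cell markers and 28.4 to 209 CPM for the 4 erythroid and megakaryocyte markers. The megakaryocyte marker ITGA2B was called higher for the mean inhibitor effect (0.87 ± 0.14 SE) and in the trend (0.36 ± 0.13) and lower with shEVI1-2532 (-1.32 ± 0.16). The T cell marker CD3E was lower with both shRNAs (-2.43 ± 0.25 and -1.74 ± 0.24), CD3D was higher in the trend (0.50 ± 0.19) and lower with shEVI1-2531 (-1.14 ± 0.34), and the NK cell marker NKG7 was lower with shEVI1-2532 (-0.92 ± 0.24). The part of these markers in the lectin levels was not tested either.

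Over 15 libraries, all but the untreated one, centred within each experiment, the levels of the receptors were compared with one another and with 8990 well expressed genes by Pearson correlation of log2 CPM, as a description. The libraries share depth and controls within each experiment, and no p is given. Among the members, CLEC4E and CLEC12A (0.900), CLEC4E and CLEC5A (0.894) and CLEC5A and CLEC7A (0.857) were most alike, and CLEC11A and CLEC2D (0.0697) least. The genes most like CLEC4E were CD36 (0.970), RP2 (0.952) and EDEM2 (0.936), and those most like CLEC5A were KRT17 (0.970), ADORA3 (0.948) and MR1 (0.947). CLEC7A came closest to PLSCR1 (0.977), KLHL24 (0.971) and YPEL5 (0.969), and CLEC12A to ADD3 (0.969), MT-TP (0.962) and RP2 (0.955). CLEC4A was followed by SMIM4 (0.969) and SAT2 (0.958), CLEC4D by C1GALT1C1 (0.935), NXT2 (0.932) and OMA1 (0.929), and CLEC2B by NDUFB5 (0.968), RPL24 (0.966) and MRPL33 (0.962). The lowest best matches were those of CLEC11A, with EMC10 (0.902), PRELID1 (0.898) and BCAP31 (0.896), and of CLEC2D, with DMAC2L (0.878), TAX1BP1 (0.865) and RNPC3 (0.861). RP2 was among the 3 for both CLEC4E and CLEC12A.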

How the data were processed

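RNA-Seq libraries of MUTZ-3 cells were made with a stranded mRNA kit and read in pairs. The deposited values are raw counts per gene and library, which the submitters' processing notes attribute to STAR, Picard and featureCounts on hg38. The annotation and the strand setting are not given in the sources used here. TPM are also deposited, were found to follow from the counts over each gene's span, and were not used.

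Library totals gave CPM, and ratios of single libraries to the DMSO library of the same hour or the NTC library of the same day carry exact 95% binomial intervals. A gene was tested if 3 of the 9 time course libraries, or 2 of the 6 knockdown libraries, held 10 counts or more. TMM scaling and quasi-likelihood F-tests came from edgeR (version 4.0.16, R version 4.3.3). The time course model held the hour and each inhibitor (4 residual degrees of freedom), with a further model for slopes on log2 hours (2). The knockdown model held the day and each shRNA (2). All p-values were adjusted after Benjamini-Hochberg over all genes tested, with a threshold of 0.05. With 1 library per condition, the error is the departure of an effect between hours or days, moderated over genes, and is not that of replicate cultures. The slope is an exception, since its spread came wholly from the trend over all genes and a gene's own departure did not enter. The untreated library entered no test. DESeq2 1.42.0, other scalings and filters, and each library left out in turn were tried as alternatives, and ratios were also scaled by TMM. The fits of the mean inhibitor effect, the slope and the shEVI1-2531 effect were tested on simulated data, and the other fits were not. Of simulated log2 changes of 1, these 3 fits recovered 84%, 98% and 74%, in that order. Of their calls there, 6.15%, 3.41% and 8.9% were false, beside the threshold of 0.05.

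The genes and lists were chosen with earlier results of these data known. Named are all 10 genes, MECOM, at most 3 called genes per list and comparison with the largest change, and for each gene the 3 with the highest correlation (prior count 2, mean log2 CPM above 3). CLEC12A-AS1, CLEC1B, MGAM, CARD9 and some of the progenitor, monocyte, neutrophil, NK, T, B and erythroid markers were named outside this rule, after their values were seen. A few genes that the rule names are not reported here. Both libraries labelled shEVI1-2531 have file names with another number, and the identity of this arm rests on the labels.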

Additional observations from a re-analysis of the deposited data

Results flagged for a closer look

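The inhibitor effect differed between the hours for 6 genes in edgeR's test of the slope, with the values in log2 per doubling of the hours. The slope was 1.95 for CLEC4A (adjusted p = 5.1e-07), 1.11 for CLEC5A (1.6e-14), 0.83 for CLEC12A (5.3e-08), 0.57 for CLEC4E (0.0026), 0.55 for CLEC7A (0.000346) and 0.50 for CLEC2B (0.00202). A gene's own scatter between hours does not enter these p-values. With 1 library left out in turn, 2 to 6 of the members were called.

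The effects of the 2 shRNAs differed for 5 genes, each higher with shEVI1-2532. The log2 difference was 2.14 for CLEC4A (edgeR adjusted p = 0.000515), 0.95 for CLEC2D (0.0375), 0.82 for CLEC11A (0.00116), 0.53 for CLEC7A (0.0423) and 0.50 for CLEC2B (0.0204). MECOM was also lower with shEVI1-2532 than with shEVI1-2531, by a log2 difference of -1.70. The depth of the knockdown and other differences between the shRNAs cannot be told apart.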

How the results depend on the processing

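No paired analysis was possible because the labels give no replicate numbers and each condition holds 1 library; the hour or day was a term of each model instead. For the mean PARPi effect, 718 genes were called, against 468 with scaling to the library total, 3474 with DESeq2, 3728 without the filter on low counts and 16 without the hour in the model, and 0 of the 9 members, against 2 with DESeq2 and 4 without the filter. For olaparib, 110 genes were called, against 669, 977 and 0 with DESeq2, without the filter and without the hour, and 3 members without the filter. For talazoparib, 688 were called, against 179, 3740, 3876 and 12 in the order of the mean effect, and 2 members with DESeq2 and 3 without the filter. With both shRNAs as 1 group, 308 genes and 1 member were called, against 6380 and 7. The shRNA difference was called for 3 members with scaling to the library total, against 5, and CLEC10A was gained there as lower with shEVI1-2532, as it was without the filter.

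Leaving out 1 library or hour in turn gave 0 to 4720 genes and 0 to 5 members for the mean PARPi effect, 0 to 1764 and 0 to 2 for olaparib, 0 to 5005 and 0 to 5 for talazoparib, 258 to 3817 and 2 to 6 for the slope, 1830 to 3885 and 3 to 6 for shEVI1-2531, 5322 to 8482 and 7 to 9 for shEVI1-2532, 3563 to 6720 and 4 to 7 for their mean, and 2861 to 4972 and 3 to 6 for their difference. A fit with fewer libraries has fewer residual degrees of freedom. The cause of the other changes was not tested.

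Several values turned sign, and all but the CLEC7A slope were uncalled in the main fits. Not all lay near 0, the mean shEVI1 effect of CLEC10A being -0.80 in the main fit. Without the hour, the mean PARPi effect was 0.015 for CLEC4D and 0.0031 for CLEC2D. With scaling to the library total, olaparib gave -0.010 for CLEC4D and -0.019 for CLEC2B, talazoparib -0.069 for CLEC2D, and the shRNA difference was -0.025 for CLEC4E and -0.00094 for CLEC5A. Leaving out 1 library or hour gave mean PARPi effects of -0.18 to 0.10 for CLEC4D, -0.20 to 0.17 for CLEC11A, -0.18 to 0.32 for CLEC2B and -0.20 to 0.087 for CLEC2D. Olaparib gave -0.12 to 0.17 for CLEC4D, -0.21 to 0.17 for CLEC11A, -0.23 to 0.28 for CLEC2B and -0.28 to 0.011 for CLEC2D, and talazoparib -0.25 to 0.072, -0.19 to 0.18, -0.17 to 0.42 and -0.21 to 0.28 for the same 4. The slope ran from -0.021 to 1.13 for CLEC7A, which was called, and from -0.41 to 0.70 for CLEC11A. shEVI1-2531 gave -0.61 to 1.44 for CLEC10A, shEVI1-2532 -0.12 to 0.79 for CLEC2D, and their mean -1.69 to 0.34 for CLEC10A and -0.59 to 0.32 for CLEC2D. The shRNA difference ran from -3.29 to -1.30 for CLEC10A, which kept its sign and was called in 2 of these 6 fits. That difference ran from -0.59 to 0.11 for CLEC4D, -0.22 to 0.41 for CLEC4E, -0.22 to 0.48 for CLEC5A and -0.44 to 0.31 for CLEC12A. Of 927 alternative values of the 10 genes, 757 kept their direction and side of the threshold.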
